A study of Homo sapiens with 3 samples.

Results

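Metallothioneins are small, cysteine-rich proteins that bind zinc and copper in the cytosol. In all, 10 genes of this system were examined in H660 cells, a human neuroendocrine prostate cancer cell line, out of 58735 genes in the expression table. They are the 8 metallothionein genes MT1A, MT1E, MT1F, MT1G, MT1H, MT1M, MT1X and MT2A, the transcription factor MTF1, and SLC30A1, which encodes the zinc exporter ZnT1. The genes were taken by symbol. They were chosen by their role after the FPKM values of the same 3 libraries, including the changes of several of them, had been seen, so all of their levels and changes are a description.
The study asked how H660 cells respond to JG231, an allosteric inhibitor of the HSP70 chaperones. Parental H660 cells received the vehicle DMSO, 2.5 µM JG231 or 5 µM JG231 for 24 h, and RNA-seq was performed on 1 library per condition. No condition was replicated, so no standard deviation or p-value is given. All results compare single libraries of 1 cell line, and a difference between culture dishes cannot be told apart from an effect of the dose.
When free zinc rises in a cell, MTF1 binds DNA elements called metal response elements (MREs) upstream of metallothionein genes and SLC30A1 and switches them on. Metallothioneins then hold the metal, while ZnT1 in the plasma membrane pumps zinc out of the cell. Oxidants, cadmium and glucocorticoids also raise metallothionein transcripts in many cell types. Normal prostate epithelium is known for its unusually high zinc content, which is lost in prostate cancer.

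Of the 10 genes, 5 had a promoter in the RefSeq table used here (GRCh38.p14), namely MT1H, MT1X, MT2A, MTF1 and SLC30A1. MT1A, MT1E, MT1F, MT1G and MT1M were not among them. The 250 bases upstream of each RefSeq start were searched on both strands for the MRE core, spelled TGCACNC or TGCGCNC, with overlapping matches allowed. The promoters of 4 genes are shown 5′ to 3′ because they contrast a metallothionein that was transcribed in every library (MT2A, MT1X), one listed at 0 throughout (MT1H), and the exporter. Capitals mark the matches.
MT2A (chr16:56608334-56608583, plus strand): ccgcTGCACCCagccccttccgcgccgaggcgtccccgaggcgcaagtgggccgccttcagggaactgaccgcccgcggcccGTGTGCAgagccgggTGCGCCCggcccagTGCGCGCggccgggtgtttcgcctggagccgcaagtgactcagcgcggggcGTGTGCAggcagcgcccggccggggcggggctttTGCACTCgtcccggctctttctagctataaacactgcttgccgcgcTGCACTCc
MT1X (chr16:56682220-56682469, plus strand): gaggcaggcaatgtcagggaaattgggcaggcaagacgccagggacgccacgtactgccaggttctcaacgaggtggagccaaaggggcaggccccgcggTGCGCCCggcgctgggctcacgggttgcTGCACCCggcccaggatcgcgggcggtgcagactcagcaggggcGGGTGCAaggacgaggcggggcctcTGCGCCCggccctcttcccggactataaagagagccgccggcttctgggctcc
MT1H (chr16:56669564-56669813, plus strand): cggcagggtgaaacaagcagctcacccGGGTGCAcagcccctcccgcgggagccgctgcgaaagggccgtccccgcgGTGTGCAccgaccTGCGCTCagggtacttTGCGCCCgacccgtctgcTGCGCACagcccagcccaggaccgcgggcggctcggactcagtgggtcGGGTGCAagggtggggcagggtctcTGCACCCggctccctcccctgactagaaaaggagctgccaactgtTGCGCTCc
SLC30A1 (chr1:211579162-211579411, minus strand): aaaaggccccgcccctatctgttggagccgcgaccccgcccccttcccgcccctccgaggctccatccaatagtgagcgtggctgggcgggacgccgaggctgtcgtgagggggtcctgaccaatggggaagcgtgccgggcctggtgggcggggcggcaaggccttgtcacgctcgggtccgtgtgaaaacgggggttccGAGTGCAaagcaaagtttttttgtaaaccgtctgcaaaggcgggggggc
MT2A held 7 matches, MT1X held 4, MT1H held 8 and SLC30A1 held 1, while MTF1 itself held 0. Of 35116 promoters of the same length, 24.8% held at least 1 match, 0.37% held at least 4 and 0.031% held at least 7. In MT2A the farthest match began 246 bases before the start, and 1 base lay between the nearest match and the start. The match of SLC30A1 began 49 bases before the start. A match is a string of letters and no measure of binding. Whether the number of matches followed the expression cannot be read here. MT1H, with the most matches, was listed at 0 in all 3 libraries, and a listed 0 can be a failed estimate, as described below.

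Values are given as FPKM, the fragments of a gene scaled to its length and to the depth of the library. The 3 libraries held about 16100000 fragments in DMSO, 20400000 at 2.5 µM and 24100000 at 5 µM, read from the smallest steps of the FPKM values. The number of genes above 0 was 21862, 19352 and 17293 in the same order. Among genes with a single annotated transcript, 2784 stood on 1 to 10 fragments in DMSO, 1747 at 2.5 µM and 574 at 5 µM. Low values were thus rarer in the 5 µM library, although it was the deepest, and whether its fragments were copies of fewer molecules was not tested. Neuroendocrine markers were expressed in DMSO, with 46.0 FPKM for CHGA, 37.0 for ENO2 and 17.7 for SYP. At 5 µM they were lower, CHGA with 12.7 FPKM, ENO2 with 27.8 and SYP with 14.8, whereas MYCN stayed under 1 FPKM in every library. The prostate luminal markers KLK3, KLK2 and TMPRSS2 were under 1 FPKM in every library, although the sample records call the cells prostatic adenocarcinoma. The fibroblast, leukocyte and endothelial markers DCN, PTPRC and PECAM1 were listed at 0 in all libraries, and COL1A1 and COL1A2 summed to between 0.811 and 1.32 FPKM. In such bulk RNA, more expressing cells and more RNA per cell cannot be told apart.

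The metallothioneins, the largest group, were carried by MT2A, the main ubiquitous form in human tissues. MT2A (ENSG00000125148, chromosome 16, 56608584 to 56609497) had 59.3 FPKM in DMSO, 79.8 at 2.5 µM and 141.1 at 5 µM JG231. These values stood on about 872, 1486 and 3102 fragments. MT2A was therefore 1.34-fold higher at 2.5 µM and 2.38-fold higher at 5 µM than in DMSO, with 95% counting intervals of 1.24 to 1.46 and 2.21 to 2.57. Intervals of this kind come from the fragments (exact conditional binomial) and cover counting error only, since amplified fragments are not independent molecules.
As a yardstick of scatter, the JG231 libraries were compared over the 500 genes of most similar expression, and the robust SD of their log2 differences was taken. The log2 changes of MT2A, computed here and below with a pseudocount of 0.1 FPKM, were 0.43 at 2.5 µM and 1.25 at 5 µM against a scatter of 0.21. Both conditions in this yardstick were treated, so it holds dose effects as well as noise. At 2.5 µM the change of MT2A was -0.11 with the trend with transcript length removed, -0.01 with that of exon length, and 0.14, no longer called, in a scaling without mitochondrial and small RNA genes. At 5 µM it was 0.44 with the transcript length trend removed. The larger part of its increase lay between the JG231 doses, where the log2 difference was 0.82.
MT1X (ENSG00000187193, chromosome 16, 56682470 to 56684196) encodes a further metal-binding isoform of the MT1 group. It had 2.10 FPKM in DMSO, 2.41 at 2.5 µM and 5.09 at 5 µM. At 2.5 µM it was 1.14-fold of DMSO, and its counting interval, 0.82 to 1.64, included no change. At 5 µM it was 2.42-fold higher (1.81 to 3.31), a log2 change of 1.23 against a scatter of 0.55. With the transcript length trend removed, this change was 0.43. Like MT2A, MT1X gained most between 2.5 and 5 µM, by 1.05 on the log2 scale.
MT1F (ENSG00000198417, chromosome 16, 56657731 to 56660698), another MT1 isoform, had 3.78, 8.44 and 11.2 FPKM in DMSO, 2.5 µM and 5 µM. It was 2.23-fold higher at 2.5 µM (1.79 to 2.79) and 2.95-fold higher at 5 µM (2.40 to 3.65). The log2 changes were 1.14 and 1.54 against a scatter of 0.33, and 0.61 and 0.74 with the transcript length trend removed. Most of its increase was already present at 2.5 µM, and the step between the doses was 0.40, little more than the scatter.
MT1M (ENSG00000205364) was barely detected, with 0.132, 0.313 and 0.574 FPKM in DMSO, 2.5 µM and 5 µM. These stood on about 1, 3 and 7 fragments. The ratio at 5 µM against DMSO was 4.35 with a counting interval from 0.60 to 211, so that a change was not detectable at this depth. MT1M stayed under 1 FPKM in every library and was not counted among the genes that could be called.
MT1E (ENSG00000169715) was listed at 0 in DMSO, had 1.40 FPKM at 2.5 µM and was listed at 0 again at 5 µM. The value at 2.5 µM stood on about 30 fragments. A 0 in this table can be a failed estimate, since the widely expressed zinc importer SLC39A1 stood on about 36 fragments in DMSO and was listed at 0 in both JG231 libraries. No fold or detection limit is therefore given against a 0. The calls of MT1E below use the pseudocount against a listed 0 and hold only as far as that 0 does. As listed, MT1E did not follow the order of doses seen in MT2A, MT1X and MT1F.
MT1A (ENSG00000205362), MT1G (ENSG00000125144) and MT1H (ENSG00000205358), further isoforms of the MT1 group, were listed at 0 in all 3 libraries. Whether they were transcribed at a low level cannot be read from these values.

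**Figure D1:**
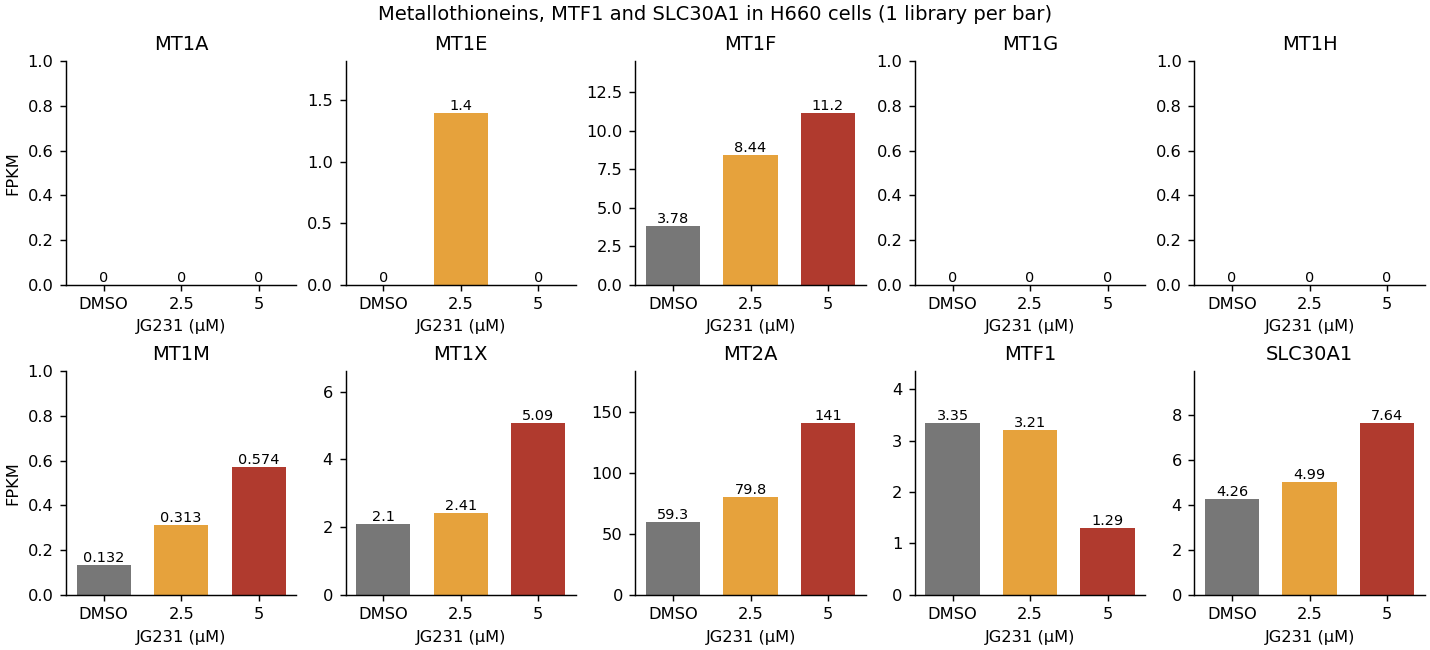
FPKM (vertical axes, linear from 0, a scale for each gene) of the 10 genes in the DMSO, 2.5 µM and 5 µM JG231 libraries, with 1 library per bar and no error bars. MT1F, MT1M, MT1X, MT2A and SLC30A1 step up from DMSO to 5 µM, MTF1 is lowest at 5 µM, MT1E is above 0 at 2.5 µM alone, and MT1A, MT1G and MT1H are at 0.

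Summed over the 8 metallothioneins, the level was 65.4 FPKM in DMSO, 92.4 at 2.5 µM and 157.9 at 5 µM, a 1.41-fold and a 2.42-fold increase. With the trend with transcript length removed, the log2 change of the sum went from 0.50 to -0.04 at 2.5 µM and from 1.27 to 0.46 at 5 µM. MT2A made up 90.8%, 86.4% and 89.3% of these sums. Levels of different genes depend on the length by which the fragments are divided. Divided by the canonical transcript instead of all annotated exons, the level at 5 µM was 321.5 FPKM for MT2A, 48.7 for MT1F, 21.7 for MT1X and 0.736 for MT1M, and the order of the genes was the same.
The 8 genes lie side by side within 75.6 kb of chromosome 16, so a fragment could in principle be placed on a near-identical neighbour. In MT1A, MT1E, MT1F, MT1G, MT1M and MT2A, 0% of the 100-base windows of the canonical transcript occurred in an annotated transcript of another gene. For MT1H it was 3.36%, shared with MT1HL1. For MT1X it was 22.0%, shared with an overlapping lncRNA on the same strand (ENSG00000259827) that was listed at 0 in all libraries. Shorter shared stretches and unannotated copies were not searched.
Of the other 13 rows of the metallothionein family, 10 were listed at 0 in all libraries. MT3, the form known from brain, had 0.440, 0.053 and 0 FPKM in DMSO, 2.5 µM and 5 µM. The remaining rows were processed pseudogenes on other chromosomes. MT2P1, on chromosome 4, had 1.70, 12.6 and 9.54 FPKM, on about 5, 47 and 42 fragments. MT1XP1, on chromosome 1, was listed at 0 in DMSO and had 3.43 and 13.9 FPKM, on about 13 and 62 fragments. No 100-base window of the MT2A or MT1X transcript occurred in either pseudogene, and whether shorter or mismatched reads of the parent genes were placed there was not tested. With every row of the family added, the sum was 67.5, 108.5 and 181.3 FPKM, 1.61-fold and 2.69-fold of DMSO.

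**Figure D2:**
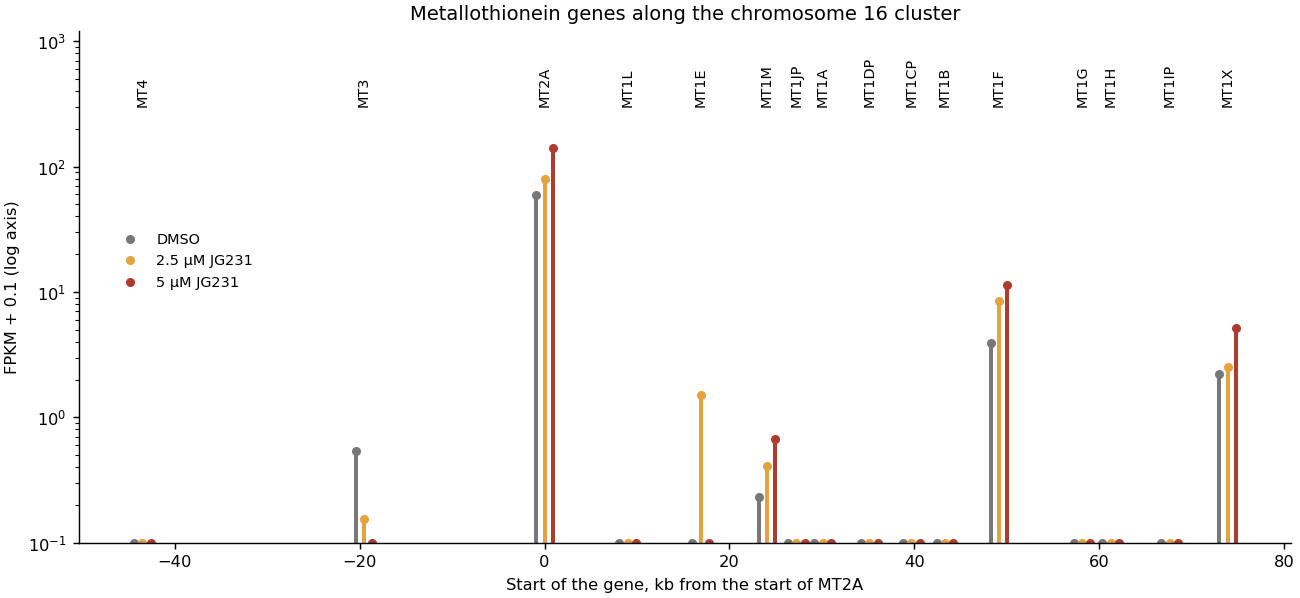
FPKM plus 0.1 (vertical log axis) of the metallothionein genes and pseudogenes of chromosome 16, placed by the distance of their starts from that of MT2A in kb (horizontal axis). Each gene has 3 lines, for DMSO (grey), 2.5 µM (orange) and 5 µM (red), set slightly apart for sight; MT2A, MT1F and MT1X carry nearly all of the signal, among many neighbours listed at 0.

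Within 500 kb of this cluster lay 10 other protein-coding genes that averaged 1 FPKM or more. At 5 µM 3 of them were higher than in DMSO by more than 0.25 on the log2 scale and 4 were lower (36.5% and 45.1% of all genes), and their median log2 change was 0.00. HERPUD1, a component of the degradation machinery of the endoplasmic reticulum, was the farthest from 0, with 6.28 FPKM in DMSO, 45.1 at 2.5 µM and 45.1 at 5 µM. OGFOD1 and NUP93, on either side of the cluster, had log2 changes of 0.48 and 0.12 at 5 µM.

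SLC30A1 (ENSG00000170385, chromosome 1, 211571568 to 211579161) had 4.26 FPKM in DMSO, 4.99 at 2.5 µM and 7.64 at 5 µM, on about 404, 600 and 1083 fragments. It was 1.17-fold higher at 2.5 µM (1.03 to 1.33) and 1.79-fold higher at 5 µM (1.60 to 2.01). The log2 change of 0.83 at 5 µM was above the scatter of 0.39, whereas that of 0.23 at 2.5 µM was within it and turned to -0.06 when libraries were scaled without mitochondrial and small RNA genes. The same scaling took the change at 5 µM to 0.455. As in MT2A and MT1X, the step from 2.5 to 5 µM was the larger one, with a log2 difference of 0.60.
MTF1 (ENSG00000188786, chromosome 1, 37809574 to 37859592), the zinc sensor that acts on these promoters, went the other way. It had 3.35 FPKM in DMSO, 3.21 at 2.5 µM and 1.29 at 5 µM, on about 430.1, 522 and 249 fragments. Its log2 change was -0.06 at 2.5 µM, within the scatter of 0.54, and -1.31 at 5 µM. MTF1 RNA was 2.58-fold lower at 5 µM than in DMSO, with a counting interval of the ratio of 0.33 to 0.45. The library with the highest MT2A, MT1X and SLC30A1 therefore had the lowest MTF1 transcript; the activity of the MTF1 protein was not measured.

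A gene was called here when its FPKM was over 1 in either library compared and its log2 change was over 0.25 in size. Both cutoffs come from a gene selection in the study's methods, which does not say which library must be over 1 and keeps every gene that passes between 0 and a value. Here such genes, MT1E among them, also had to be over 1 FPKM in 1 of the libraries. At 2.5 µM 6 of the 10 genes passed the expression filter and 3 were higher (MT1E, MT1F and MT2A), in a library pair in which 36.4% of 15746 genes were called higher. MT1E passed through its 2.5 µM value alone, against a DMSO value of 0 that can be a failed estimate. With genes listed at 0 left out, 2 were higher (MT1F and MT2A). At 5 µM 5 genes passed and 4 were higher (MT1F, MT1X, MT2A and SLC30A1), where 36.5% of 15765 genes were called higher, and MTF1 was lower, where 45.1% were called lower. MT1E, listed at 0 in both of these libraries, could not be called at 5 µM. With a threshold of 1 the higher genes were MT1E and MT1F at 2.5 µM (background 12.9%) and MT1F, MT1X and MT2A at 5 µM (background 14.7%), and MTF1 was still lower (background 24.3%). Here too MT1E was called against a listed 0. The genes were chosen with these values known, so nothing is read from the counts against the background.
The comparison of both JG231 libraries does not use the DMSO library. There, MT1F, MT1X, MT2A and SLC30A1 were higher at 5 µM by more than 0.25 (background 26.8% of 14197 genes), and MT1E and MTF1 were lower (background 30.1%). The call of MT1E rests on its listed 0 at 5 µM, which can be a failed estimate. Only MT1X passed a threshold of 1 upwards (background 7.47%). MT1F, MT1X, MT2A and SLC30A1 were ordered DMSO, 2.5 µM, 5 µM from low to high, as were 20.5% of 16347 genes with an FPKM over 1 in any library. For MT1X and SLC30A1 the first step of this order turned to -0.09 and -0.06 under the scaling without mitochondrial and small RNA genes. MT1M, under 1 FPKM, had the same order.
The median log2 change of the genes that passed the filter was 0.33 at 2.5 µM and 1.23 at 5 µM. With genes listed at 0 left out, it was 0.225 at 2.5 µM and 1.23 at 5 µM. At 2.5 µM it was 0.04 in the scaling without mitochondrial and small RNA genes and 0.12 with the exon length trend removed. At 5 µM it was 0.87 in that scaling, 0.44 with the transcript length trend removed and 0.72 with that of exon length. The scaling moved the median gene as well, by -0.29 at 2.5 µM and -0.37 at 5 µM. Over all 10, with those listed at 0 counted as 0, the median at 2.5 and 5 µM was 0.21 and 0.41. The median of all genes that passed was -0.08 and -0.11, without rescaling or removal of a trend.

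**Figure D3:**
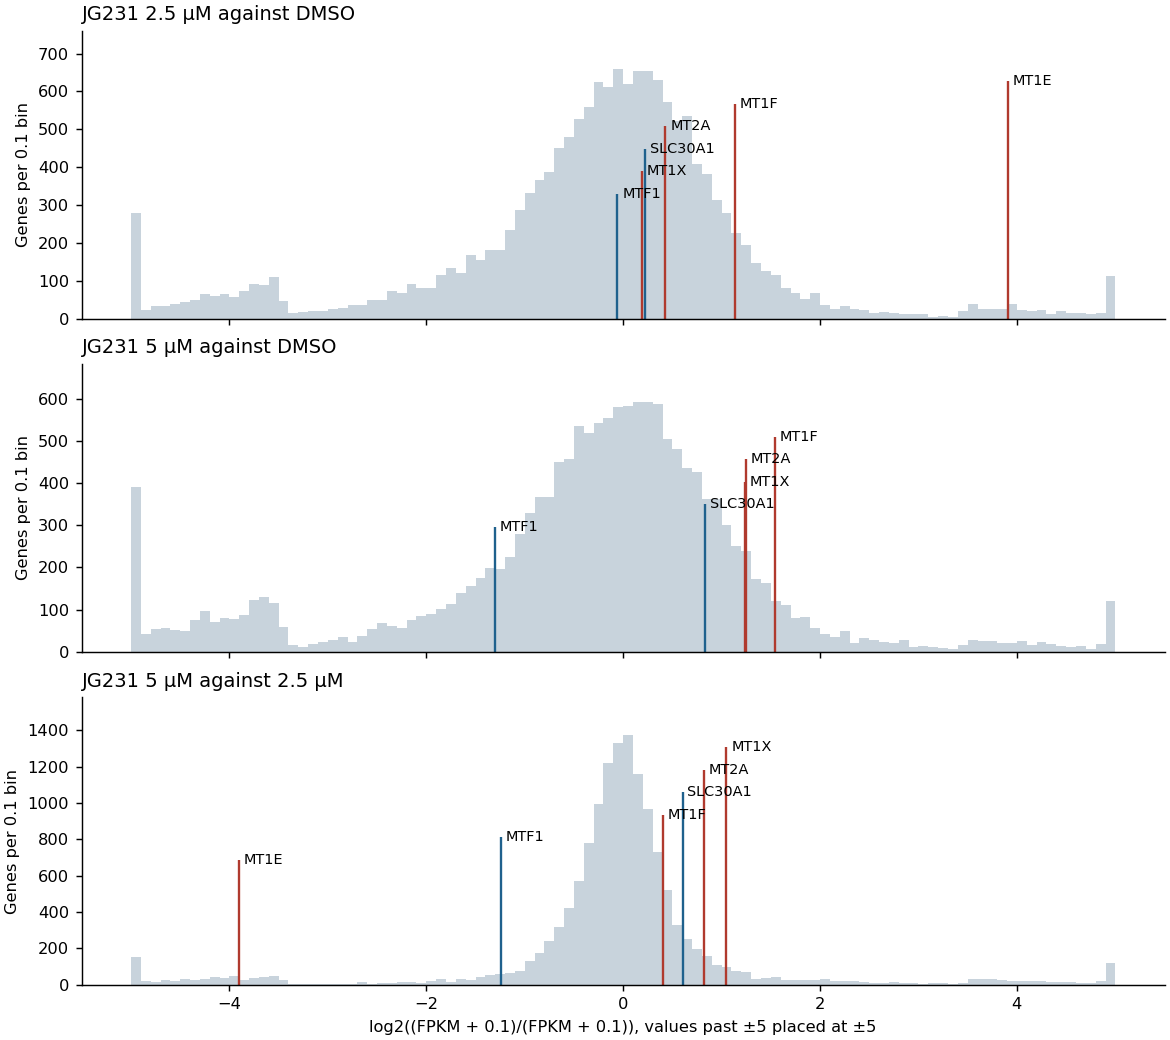
Distribution of log2 changes over genes with an FPKM over 1 in either library (horizontal axis: log2 ratio with 0.1 added, vertical axis: genes per bin of 0.1), for 2.5 µM against DMSO, 5 µM against DMSO and 5 µM against 2.5 µM. Lines mark metallothioneins (red) and MTF1 and SLC30A1 (blue) that passed the filter, their heights being set for legibility alone; at 5 µM MT1F, MT2A, MT1X and SLC30A1 lie to the right of 0 within the upper shoulder of the distribution and MTF1 lies to its left.

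Transcript length moved with the changes in these libraries and touches the metallothioneins, whose canonical transcripts are among the shortest, at 396 to 746 bp. Over 11200 protein-coding genes that averaged 1 FPKM or more, a lowess trend gave a log2 change of 0.81 at 5 µM and 0.54 at 2.5 µM at the length of MT2A, 401 bp. Only 66 of these genes had transcripts under 500 bp, with a median change of 0.77 at 5 µM and 0.43 at 2.5 µM. MT2A lay 0.44 above the trend at 5 µM but 0.11 below it at 2.5 µM. MT1X was 0.43 above it at 5 µM and 0.35 below it at 2.5 µM, whereas MT1F was above it at both doses, by 0.74 and 0.61.
SLC30A1 and MTF1 have long transcripts, for which the trend was negative. SLC30A1, at 5893 bp, lay 1.12 above the trend at 5 µM. MTF1, at 7937 bp, lay 0.87 below it. The part of transcript length in these changes was not tested.

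**Figure D4:**
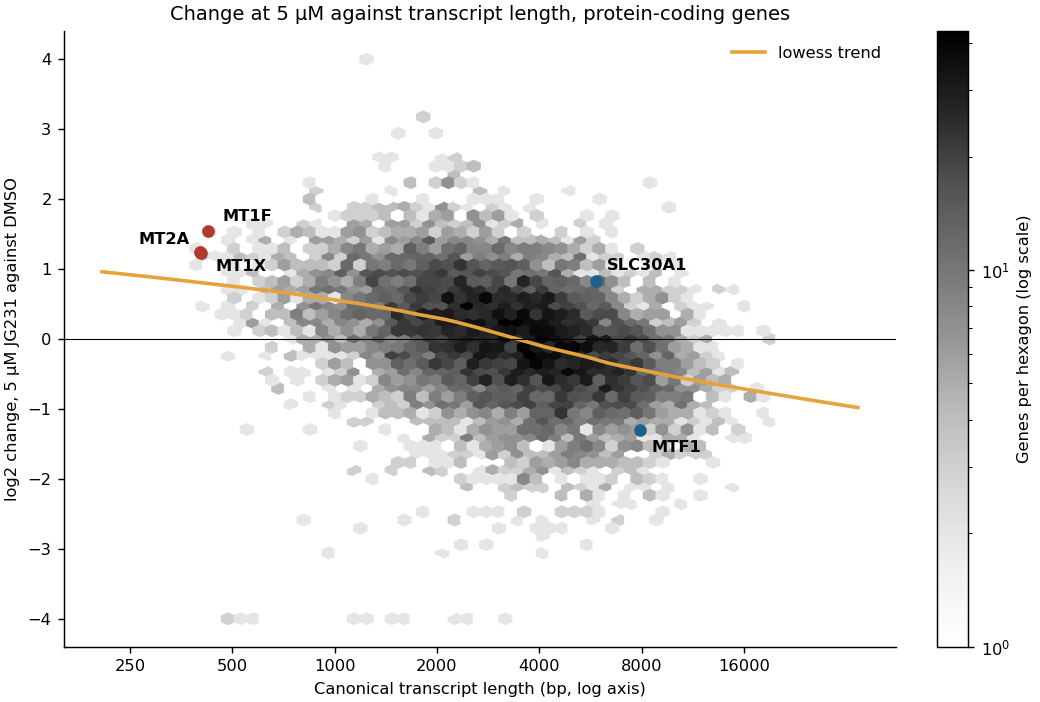
Log2 change at 5 µM JG231 against DMSO (vertical axis, clipped at 4 in size) by canonical transcript length in bp (horizontal log axis) for 11200 protein-coding genes, shown as hexagons shaded by the number of genes, with the lowess trend in orange. MT2A, MT1X and MT1F (red) lie above a trend that is itself high at short lengths, SLC30A1 (blue) lies above it and MTF1 (blue) below it.

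Other genes of metal handling were compared in fixed lists. Of the 10 zinc exporters besides ZnT1 (SLC30A2 to SLC30A10 and TMEM163), 4 passed the filter at 5 µM, of which 0 were higher and 2 were lower (36.5% and 45.1% of all genes). SLC30A9, which acts on mitochondrial zinc, had 13.8, 6.32 and 7.24 FPKM in DMSO, 2.5 µM and 5 µM, and SLC30A6, which loads zinc into the secretory pathway, had 7.18, 4.35 and 4.06. SLC30A7, which acts in the Golgi, had 6.98, 6.35 and 6.50 FPKM, and SLC30A5 was flat at 6.63 to 6.68. At 2.5 µM 1 of 5 exporters, SLC30A2, was higher and SLC30A6 and SLC30A9 were lower (36.4% and 43.4% of all genes). SLC30A1, chosen with its values known, was thus the one zinc exporter called higher at 5 µM among those that passed the filter.
Of the 14 zinc importers of the ZIP family, 10 passed at 5 µM, with 2 higher, 3 lower (36.5% and 45.1% of all genes) and a median log2 change of -0.04 (-0.11 over all genes). SLC39A7 (ZIP7), which releases zinc from the endoplasmic reticulum into the cytosol, was the most abundant at 5 µM and was higher, with 46.1, 58.4 and 78.1 FPKM. SLC39A8, the other higher gene, had 0.662, 0.492 and 2.07 FPKM. SLC39A10 and SLC39A11 were lower, with log2 changes of -0.70 and -0.73 at 5 µM and -0.80 and -0.90 at 2.5 µM. At 2.5 µM 2 of 9 importers were higher and 4 were lower (36.4% and 43.4% of all genes).
Copper is the other metal named above that metallothioneins bind. Of 9 copper-handling genes, 8 passed at 5 µM, of which 3 were higher and 2 were lower (36.5% and 45.1% of all genes). At 2.5 µM 1 of 7 was higher and 3 were lower (36.4% and 43.4%). COX17, the copper chaperone of cytochrome c oxidase, had 14.1, 29.6 and 30.7 FPKM. ATP7B, a copper-exporting ATPase, had 2.37, 0.482 and 1.03 FPKM, and SCO1, a mitochondrial copper chaperone, had 2.93, 2.36 and 2.36.
Of 9 genes that respond to metals and oxidants, 6 were higher at each dose (36.4% and 36.5% of all genes), and at 2.5 µM SRXN1 was lower (43.4% of all genes). HMOX1, heme oxygenase, had 1.21, 8.92 and 13.9 FPKM in DMSO, 2.5 µM and 5 µM. FTH1 and FTL, the ferritin subunits that store iron, had 213.7, 918 and 1165 FPKM and 219.5, 436 and 489 FPKM. Processed pseudogenes of both ferritins could share their reads. These genes had most of their increase at 2.5 µM, with log2 differences of 0.63, 0.34 and 0.17 between the doses. The same differences were 0.82 for MT2A, 1.05 for MT1X, 0.60 for SLC30A1 and 0.40 for MT1F, so the ranges of both groups overlapped.
Of 8 glucocorticoid-responsive genes, 5 were higher and 2 were lower at 5 µM (36.5% and 45.1% of all genes). At 2.5 µM the counts were the same (36.4% and 43.4%), but the lower genes were SGK1 and ZBTB16 there and SGK1 and FKBP5 at 5 µM. The higher genes at both doses were DUSP1, KLF9, NR3C1, PER1 and TSC22D3. Of these, NR3C1 encodes the glucocorticoid receptor itself and had 4.72, 9.92 and 7.82 FPKM in DMSO, 2.5 µM and 5 µM. SGK1, a kinase, had 18.7, 12.5 and 12.4 FPKM in DMSO, 2.5 µM and 5 µM. DUSP1, a MAP kinase phosphatase, had 5.48, 37.3 and 44.1 FPKM, and PER1 had 2.96, 7.52 and 8.79. KLF9 had 0.685, 2.46 and 2.0 FPKM. FKBP5, often used to read out the glucocorticoid receptor, had 5.78, 5.26 and 4.52 FPKM, and TSC22D3 (GILZ) had 1.96, 4.62 and 3.25. The study's methods list hydrocortisone, a glucocorticoid, in the growth medium of H660 cells. The DMSO library is therefore not known to be a baseline without glucocorticoid.

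**Figure D5:**
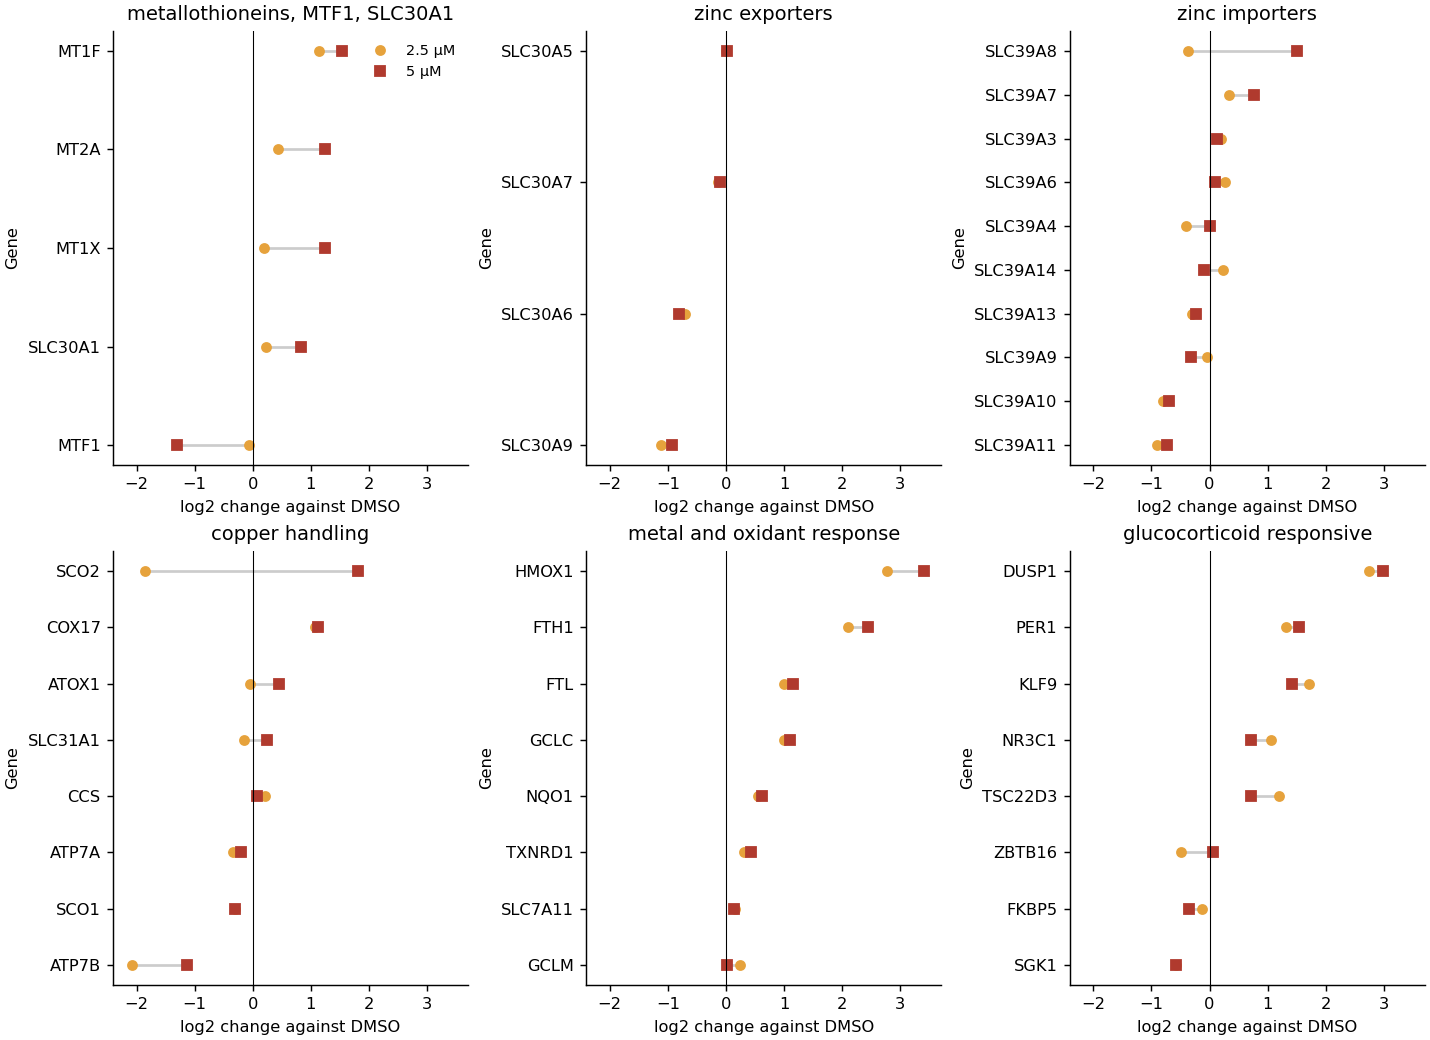
Log2 changes against DMSO at 2.5 µM (orange circles) and 5 µM (red squares) for 5 of the 10 genes and for 5 lists of metal-handling and responsive genes averaging 1 FPKM or more (vertical axis: genes, horizontal axis: log2 change with 0.1 added). Between the doses the log2 difference is 0.40 for MT1F, 0.60 for SLC30A1, 0.82 for MT2A, 1.05 for MT1X and -1.24 for MTF1. Among the lists the difference reaches 3.67 for SCO2 and 1.87 for SLC39A8, which were over 1 FPKM at 5 µM alone. SCO2 had 0.608, 0.096 and 2.40 FPKM in DMSO, 2.5 µM and 5 µM, so its 2.5 µM value is near the 0.1 added. Both doses are set against the same DMSO library.

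The 5 protein-coding genes nearest to MT2A in both log2 changes, among 7050 that averaged 5 FPKM or more, were PTRHD1, MTX1, RNF135, DPCD and ZNF580, at Euclidean distances of 0.0095 to 0.10. PTRHD1 had 6.39, 8.65 and 15.4 FPKM. Among those nearest to SLC30A1 were MICA, RRAGB, CIAPIN1 and ETNK2, at distances of 0.043 to 0.051. MICA had 3.83, 4.51 and 7.09 FPKM in DMSO, 2.5 µM and 5 µM. This likeness rests on 3 libraries and is a description.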

How the data were processed

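The authors deposited 1 table of gene-level FPKM values for 58735 Ensembl genes with 1 column per library. Their methods name HISAT and StringTie in a TopHat-Cufflinks pipeline, whereas the submitters' processing notes name HISAT2, featureCounts and GRCh38. Versions and the annotation release are not given in the sources used here. Multiplied by the exon length of GENCODE release 44, FPKM fell within 0.1 of a whole number of fragments for 86.7% to 90.5% of genes with a single transcript and 55.4% to 58.0% of genes with several, counted under 50 fragments. Fragments given in the text use this length and are approximate where a gene has several. Reads placed on several genes and, since use of strand is not stated, overlapping genes are uncertain.
Changes were log2((FPKM + 0.1)/(FPKM + 0.1)), and calls needed FPKM over 1 in either library and a change over 0.25. These cutoffs follow the authors' gene selection, which also kept all genes passing between 0 and a value; here genes at 0 in 1 library had to be over 1 FPKM in the other. With 1 library per condition no test was run. The 10 genes and the lists were chosen with earlier results of these data known; the naming rule took the 10 genes, up to 3 genes per list with the largest change at 5 µM, a mean FPKM of at least 1 and the same sign at both doses, neighbours within 500 kb, and the 5 genes nearest to MT2A and SLC30A1 in both changes. Further list genes (SLC30A5, SLC30A2, SLC39A1, SLC39A8, SCO2, SRXN1, FKBP5, SGK1, TSC22D3, ZBTB16, NR3C1) and MT3 were named after their values were seen. Alternatives were pseudocounts of 1 and 0.01, other filters, a threshold of 1, rescaled libraries, median centring, summing rows of the same symbol, and removal of the trend with transcript length (lowess, fraction 0.3) or, chosen after seeing the data, exon length. Some marker genes and 1 gene that the naming rule takes are not reported here. Code was tested on simulated data. Software was Python 3.11.15 with statsmodels 0.14.6, scipy 1.17.1, pandas 2.3.3, matplotlib 3.10.9 and numpy 2.4.6.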

Additional observations from a re-analysis of the deposited data

How the results depend on the processing

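With 1 library per condition no replicate could be left out. The count of genes higher at 5 µM was 3 to 5 under every alternative run, against 4 as reported. At 2.5 µM it was 2 to 4 against 3, except that centring on the median gene gave 5. The median log2 change at 5 µM went from 1.23 to 0.41 without the filter on low values, by its construction through the genes listed at 0, to 0.44 with the transcript length trend removed, and to 0.72 with the exon length trend removed. At 2.5 µM the direction of MT2A depended on the length correction. Its log2 change was -0.11 with the transcript length trend removed and -0.013 with the exon length trend removed, and the summed metallothionein change was -0.041 with the former; the cause was not tested. Scaling that left out small RNA and mitochondrial genes moved the median gene by -0.29 at 2.5 µM and -0.37 at 5 µM, and MT2A to 0.14 and 0.87. Under the same scaling SLC30A1 at 2.5 µM went from 0.23 to -0.06 and MT1X from 0.19 to -0.09. At 5 µM the changes of MT1F, MT1X, MT2A and SLC30A1 ranged from 0.43 to 1.65 and that of MTF1 from -1.67 to -0.87 over the alternatives run. A common FPKM sum moved the median gene by 0.048 and -0.13. The log2 change of MT1E at 2.5 µM was 1.26 with a pseudocount of 1 and 7.14 with 0.01, since its DMSO value is 0. Its size is thus set by the pseudocount and is no estimate of a change. The median at 2.5 µM went from 0.33 to 0.04 in the scaling without small RNA and mitochondrial genes. MT1A, MT1E, MT1G, MT1H and MT1M stood on at most about 30 fragments in any library.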
